A study of Mus musculus with 12 samples.

Results

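Oligodendrocyte precursor and lineage genes were followed in whole mouse brain by the symbols of 8 genes, namely Pdgfra, Cspg4, Gpr17, Bcas1, Enpp6, Olig1, Olig2 and Sox10. All 8 were found among the 16482 genes with a symbol in the count table, and all 8 were kept by the filter on low counts among 12623 genes tested. The rule takes them by symbol and uses no measured value. Conduritol B epoxide (CBE) inactivates the lysosomal enzyme acid beta-glucosidase and serves in mice as a chemical model of neuronopathic Gaucher disease, a disorder with accumulation of glucosylceramide. GZ-667161 inhibits glucosylceramide synthase, the enzyme that makes this lipid. Brains of C57BL/6 mice were profiled in 3 groups of 4 samples: CBE together with GZ-667161 (postnatal day 40), CBE alone (replicates 4 and 6 of postnatal day 40, replicates 2 and 3 of postnatal day 34), and PBS (postnatal day 40). Libraries were made by MARS-seq adapted to bulk RNA, a method that reads tags near the 3' ends of transcripts. Dose, injection schedule and sex are not given in the sources used here, and neither is whether a sample is 1 animal, and the p-values then cover only the spread among these samples, which may be technical.

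Oligodendrocytes wrap axons in myelin and arise throughout life from precursor cells that are spread over the whole brain. Precursors carry the platelet-derived growth factor receptor Pdgfra and the proteoglycan Cspg4 (NG2). A precursor that leaves the cell cycle passes through a short stage as a committed, newly formed cell marked by the receptor Gpr17, by Bcas1 and by the choline phosphodiesterase Enpp6, before it makes myelin. The basic helix-loop-helix factors Olig1 and Olig2 and the HMG-box factor Sox10 are present from the precursor to the mature cell, and Olig2 is needed to form the lineage and Sox10 for its final maturation.

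On the mm10 build with GENCODE vM21, Pdgfra lies at chr5:75152292-75198215 on the plus strand and Cspg4 at chr9:56865033-56899870 on the plus strand. Bcas1 lies at chr2:170346991-170427845 on the minus strand and Enpp6 at chr8:46986887-47096762 on the plus strand. Sox10 lies at chr15:79154908-79165240 on the minus strand. Olig2, at chr16:91225457-91228677, and Olig1, at chr16:91269772-91271933, are neighbours on the plus strand with 41094 bp between them. All are protein-coding, and the values below are tags that the authors assigned to each symbol.

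Promoter windows from RefSeq (GRCm38.p6, plus strand, 250 bases before to 50 after the annotated start) matched 4 of the 8 genes, namely Pdgfra, Cspg4, Enpp6 and Olig2. A pair of them is printed 5′ to 3′ because Pdgfra holds the only match to a motif searched and Enpp6 had the lowest log2 fold change of the 4 for CBE over PBS. Capitals mark that match.
Pdgfra, chr5:75152001-75152300: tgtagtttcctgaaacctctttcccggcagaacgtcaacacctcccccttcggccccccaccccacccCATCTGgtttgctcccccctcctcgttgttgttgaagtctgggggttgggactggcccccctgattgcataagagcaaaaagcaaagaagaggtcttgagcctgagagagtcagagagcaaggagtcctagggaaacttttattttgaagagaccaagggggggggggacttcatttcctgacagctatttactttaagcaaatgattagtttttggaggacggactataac
Enpp6, chr8:46986637-46986936: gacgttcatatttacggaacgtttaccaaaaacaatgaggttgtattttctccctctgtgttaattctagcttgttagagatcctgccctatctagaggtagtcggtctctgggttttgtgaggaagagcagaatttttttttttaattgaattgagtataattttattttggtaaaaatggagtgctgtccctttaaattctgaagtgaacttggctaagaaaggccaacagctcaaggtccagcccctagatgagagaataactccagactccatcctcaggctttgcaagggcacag

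The motifs were CAGCTG and CAGATG, forms of the E-box CANNTG that basic helix-loop-helix factors such as Olig2 bind, and ACAAAG, a core bound by Sox proteins, each on both strands. CAGCTG reads the same on both strands, and no match overlaps another in the printed windows. The match in Pdgfra is CAGATG read on the other strand, and its first base lies at position -182 from the RefSeq start. Among 32851 mouse promoter windows of the same 300 bases, 16.3% held CAGCTG, 17.2% held CAGATG and 18.7% held ACAAAG. The windows of Cspg4, Enpp6 and Olig2 held none of the 3.

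Total counts ran from 1758446 to 6521257 per sample, with the lowest totals in the CBE samples of day 34. Levels are in CPM, a gene's count relative to the TMM-scaled size of its library. The common biological coefficient of variation was 0.193. Markers of neurons, astrocytes, microglia and mature oligodendrocytes were all counted, as whole brain holds them. Microglial markers set the PBS samples apart, whereas the CBE+GZ-667161 and CBE samples overlapped. The summed level of 8 was 1500 to 2640 CPM in CBE+GZ-667161 samples, 2390 to 3720 CPM in CBE samples and 743 to 827 CPM in PBS samples, with none at 0 in every sample. Against PBS, 6 of the 8 rose with CBE and 6 with CBE+GZ-667161, and between CBE+GZ-667161 and CBE 0 were called. Neuronal markers differed too: the summed level of 7 was 3160 to 4050 CPM in CBE+GZ-667161 samples, 2830 to 3760 CPM in CBE samples and 3850 to 4420 CPM in PBS samples, with none at 0 in every sample. Of these 7, 4 fell in CBE against PBS samples, and all 7 log2 fold changes were negative with a median of -0.6. For CBE+GZ-667161 over CBE, 1 neuronal marker rose and all 7 log2 fold changes were positive, with a median of 0.22. A larger share of counts from other cells lowers CPM of all the rest, and the part of this in the results below was not tested. Xist, transcribed in female cells, was at 7.96 to 25.7 CPM in CBE+GZ-667161 replicates 2, 3 and 5 and PBS replicates 4 and 5, and at most 0.555 CPM in all other samples, including every CBE sample. With Xist as a covariate none of the 8 genes passed in any comparison.

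The precursor genes Pdgfra and Cspg4 did not differ between any groups beyond the threshold, which was an adjusted p of 0.05 in edgeR's quasi-likelihood test over all tested genes. Values are given for replicates 2, 3, 4 and 5 of CBE+GZ-667161, replicates 4 and 6 (day 40) and then 2 and 3 (day 34) of CBE, and replicates 2, 3, 4 and 5 of PBS. Pdgfra, the receptor through which PDGF drives precursor division, was at 20.4, 15.2, 12.1 and 13.8 CPM in CBE+GZ-667161 samples, 20, 21.5, 26.9 and 18.9 CPM in CBE samples, and 21.7, 19.4, 19.3 and 17.7 CPM in PBS samples. The CBE and PBS samples were interleaved, and 3 of the 4 CBE+GZ-667161 samples lay below every other sample. Group means were 15.4 ± 3.59 CPM with CBE+GZ-667161, 21.8 ± 3.58 CPM with CBE and 19.5 ± 1.65 CPM with PBS (SD, n = 4 each). The log2 fold change was 0.16 ± 0.19 for CBE over PBS (SE, edgeR adjusted p = 0.65), -0.33 ± 0.19 for CBE+GZ-667161 over PBS (adjusted p = 0.5) and -0.49 ± 0.19 for CBE+GZ-667161 over CBE (adjusted p = 0.22).

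Cspg4 was at 30.2, 32.5, 22.0 and 18.7 CPM in CBE+GZ-667161 samples, 23.5, 22.8, 21.6 and 31.1 CPM in CBE samples, and 19.6, 13.4, 10.9 and 25.5 CPM in PBS samples. The 2 lowest values were of PBS, and PBS replicates 2 and 5 lay among the samples of the other groups. Cspg4 differed by a log2 fold change of 0.47 ± 0.25 between CBE and PBS (adjusted p = 0.27). Against PBS, CBE+GZ-667161 gave 0.55 ± 0.24 (adjusted p = 0.32), and against CBE it gave 0.09 ± 0.25 (adjusted p = 0.9).

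Both precursor genes are also used by cells outside the lineage, Pdgfra by perivascular fibroblasts and Cspg4 by pericytes. The summed level of 5 fibroblast markers was 27.8 to 44.5 CPM in CBE+GZ-667161 samples, 13.7 to 97.8 CPM in CBE samples and 26.0 to 50.3 CPM in PBS samples. That of 7 pericyte markers was 187 to 223 CPM with CBE+GZ-667161, 134 to 229 CPM with CBE and 192 to 232 CPM with PBS. Rgs5, 1 of 5 pericyte markers tested, fell in CBE samples (-0.76 ± 0.23, adjusted p = 0.04), a call lost in 12 of 22 alternatives. The other 4 did not pass, with log2 fold changes of -0.82 ± 0.28 for Higd1b, -0.12 ± 0.18 for Vtn, 0.03 ± 0.24 for Kcnj8 and 0.11 ± 0.24 for Pdgfrb, and the median of the 5 was -0.12. No marker of either list was at 0 in all samples, and the part of these cells in the Pdgfra and Cspg4 counts was not tested.

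**Figure D1:**
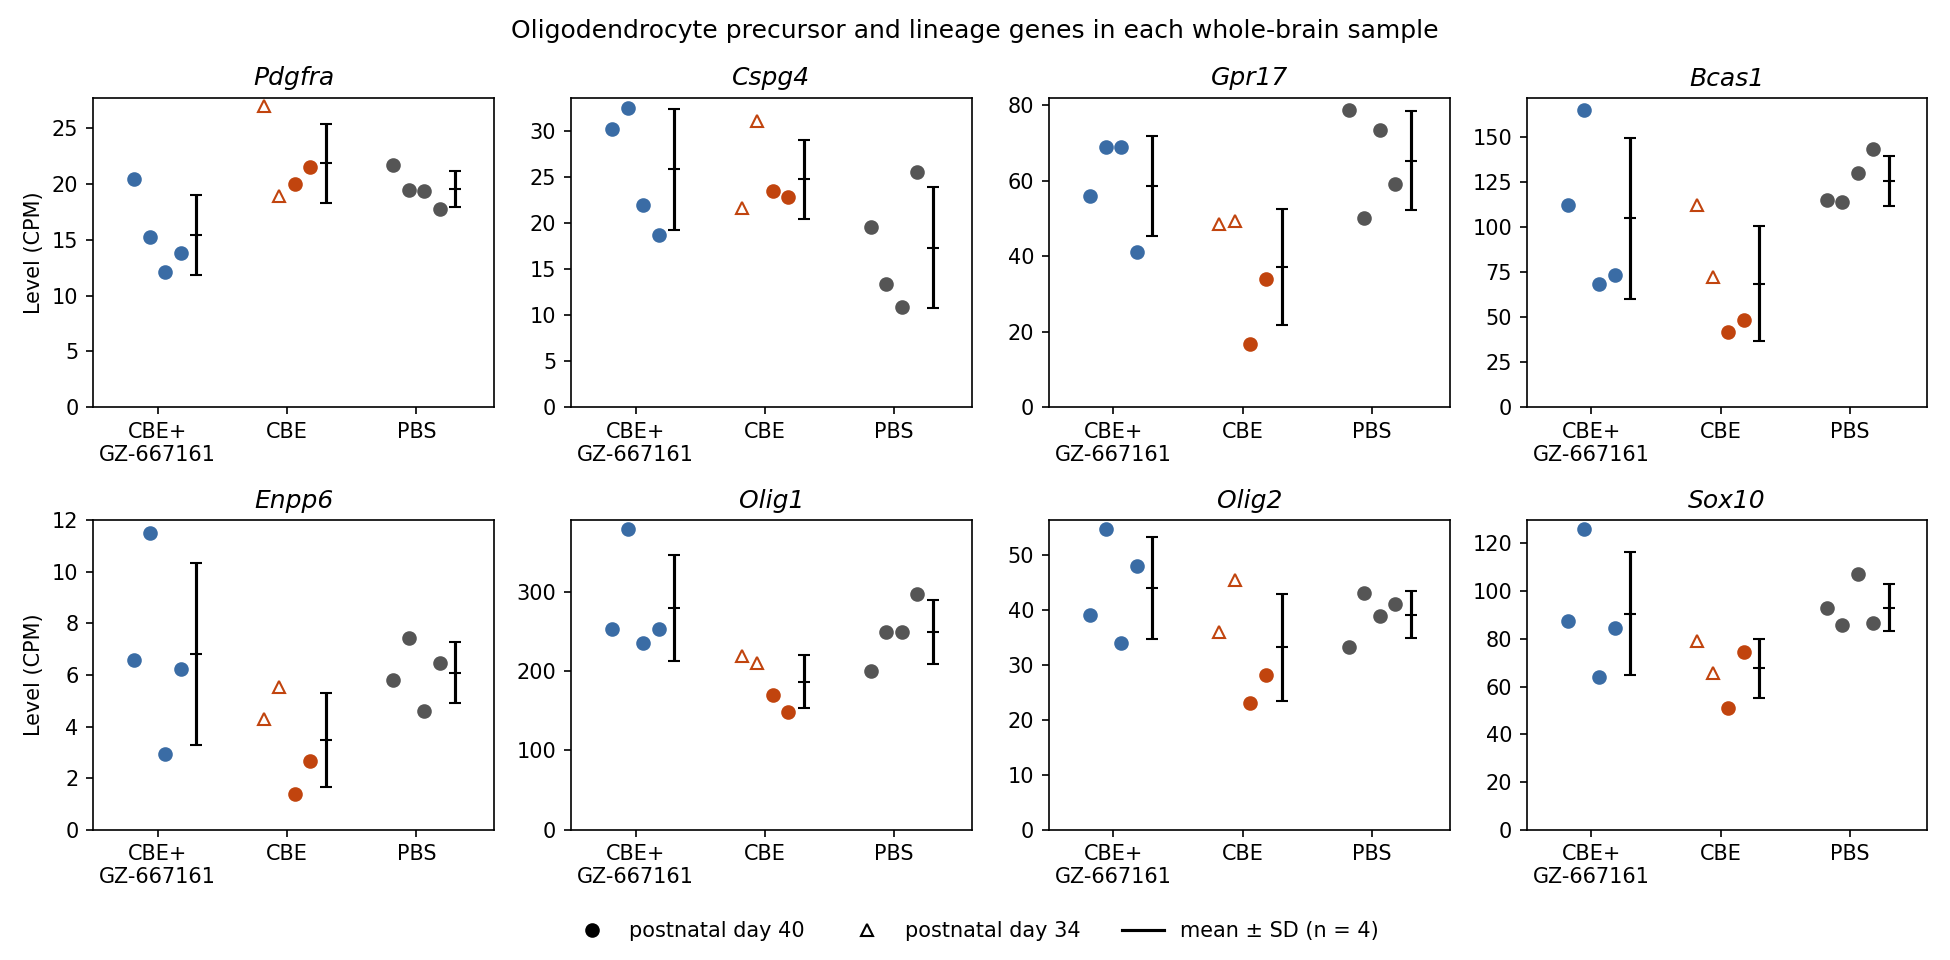
Level (CPM, linear axes from 0) of each of the 8 genes in every sample, with CBE+GZ-667161, CBE and PBS from left to right; filled circles are day 40, open triangles day 34, and bars the mean ± SD of 4 samples. The day 40 CBE samples are the lowest of all 12 for Bcas1, at 42.0 and 48.3 CPM, whereas those of Pdgfra, at 20 and 21.5 CPM, lie among the rest.

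The genes of the newly formed stage had their lowest mean level in CBE brains, but none passed the threshold with all 4 CBE samples. Gpr17, a receptor that appears when a precursor commits and is lost before myelination, was at 55.9, 68.9, 68.9 and 41.0 CPM in CBE+GZ-667161 samples, 16.8, 34.1, 48.5 and 49.4 CPM in CBE samples, and 78.8, 50.2, 73.3 and 59.1 CPM in PBS samples. Every CBE sample lay below every PBS sample, and CBE replicate 4 was the lowest of all. The mean was 58.7 ± 13.3 CPM with CBE+GZ-667161, 37.2 ± 15.3 CPM with CBE and 65.4 ± 13.1 CPM with PBS (SD, n = 4 each). For CBE over PBS the log2 fold change was -0.84 ± 0.26 (95% interval -1.39 to -0.28), with an edgeR adjusted p of 0.052, just above the threshold. It passed when 1 sample was left out, namely PBS replicate 3 (adjusted p = 0.048), CBE replicate 2 (0.038), CBE replicate 3 (0.03) or CBE+GZ-667161 replicate 5 (0.048). CBE+GZ-667161 differed from PBS by -0.14 ± 0.25 (adjusted p = 0.9) and from CBE by 0.70 ± 0.26 (adjusted p = 0.2).

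Exons of Gpr17 overlap those of Lims2, a gene on the opposite strand that encodes a focal adhesion protein. Lims2 fell in CBE samples, to 25.3 ± 7.16 CPM against 42.4 ± 3.31 CPM in PBS samples (SD, n = 4 each; log2 fold change -0.77 ± 0.22, adjusted p = 0.028), and was at 43.8 ± 12.5 CPM with CBE+GZ-667161. The call of Lims2 was lost when any 1 of PBS replicates 2, 3 and 4 and CBE replicates 4 and 6 was left out (adjusted p of 0.062 to 0.11). The sources used here do not state whether strand was used in counting, so reads in the shared exon stretch cannot be told apart. The part of such reads in the counts of either gene was not tested. Of the genes with exons opposite the other members, Bcas1os2 was in the table, with 12 counts in all samples together.

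Bcas1, a protein of early myelinating oligodendrocytes, was at 112, 165, 68.4 and 73.5 CPM in CBE+GZ-667161 samples, 42.0, 48.3, 112 and 72.2 CPM in CBE samples, and 115, 114, 130 and 143 CPM in PBS samples. All 4 CBE samples lay below all 4 PBS samples, although CBE replicate 2, of day 34, came close at 112 CPM. Means were 105 ± 44.4 CPM with CBE+GZ-667161, 68.7 ± 31.7 CPM with CBE and 125 ± 14.0 CPM with PBS (SD, n = 4 each). The log2 fold change for CBE over PBS was -0.89 ± 0.29 (95% interval -1.50 to -0.28, adjusted p = 0.057), and it passed without CBE replicate 2 (adjusted p = 0.0088) or CBE+GZ-667161 replicate 3 (0.032). Between CBE+GZ-667161 and PBS it was -0.26 ± 0.28 (adjusted p = 0.81), and between CBE+GZ-667161 and CBE 0.64 ± 0.29 (adjusted p = 0.28). The CBE+GZ-667161 samples spread widely: replicate 3 was the highest of all 12 samples, and the other 3 lay below every PBS sample.

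Enpp6, the most transient of the stage's markers in mouse, had few counts, 110 over the CBE+GZ-667161 samples, 30 over the CBE samples and 110 over the PBS samples, which limits its precision. It was at 6.59, 11.5, 2.93 and 6.24 CPM with CBE+GZ-667161, 1.40, 2.65, 4.31 and 5.55 CPM with CBE, and 5.82, 7.45, 4.61 and 6.46 CPM with PBS. Both day 40 CBE samples lay below all other samples, and the day 34 pair overlapped the PBS samples. The log2 fold change was -0.90 ± 0.45 for CBE over PBS (95% interval -1.86 to 0.05, adjusted p = 0.23) and 1.05 ± 0.45 for CBE+GZ-667161 over CBE (adjusted p = 0.25). For CBE+GZ-667161 over PBS it was 0.15 ± 0.39 (adjusted p = 0.94).

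None of the lineage factors passed the threshold between treatments. Olig1, a factor that promotes maturation in mouse, was at 253, 379, 235 and 253 CPM in CBE+GZ-667161 samples, 170, 148, 219 and 210 CPM in CBE samples, and 200, 250, 249 and 298 CPM in PBS samples. Every CBE+GZ-667161 sample lay above every CBE sample, and the CBE and PBS samples overlapped. Means were 280 ± 66.7 CPM with CBE+GZ-667161, 187 ± 33.5 CPM with CBE and 249 ± 40.0 CPM with PBS (SD, n = 4 each). The difference of CBE+GZ-667161 from CBE, a log2 fold change of 0.59 ± 0.17 (95% interval 0.23 to 0.95), had an adjusted p of 0.089. That of CBE from PBS was -0.42 ± 0.17 (adjusted p = 0.13), and that of CBE+GZ-667161 from PBS 0.17 ± 0.17 (adjusted p = 0.78).

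Olig2, which specifies the lineage, was at 39.1, 54.8, 34.1 and 48.1 CPM with CBE+GZ-667161, 23.1, 28.1, 36.1 and 45.5 CPM with CBE, and 33.3, 43.2, 39.0 and 41.2 CPM with PBS. The day 40 CBE pair was again the lowest, and the day 34 pair lay within or above the PBS samples. Olig2 gave a log2 fold change of -0.26 ± 0.20 for CBE over PBS (adjusted p = 0.45), 0.42 ± 0.20 for CBE+GZ-667161 over CBE (adjusted p = 0.3) and 0.16 ± 0.19 for CBE+GZ-667161 over PBS (adjusted p = 0.83). Sox10, which switches on myelin genes, was at 87.7, 126, 64.0 and 84.6 CPM with CBE+GZ-667161, 51.1, 74.5, 79.2 and 65.5 CPM with CBE, and 92.9, 85.7, 107 and 86.8 CPM with PBS. Every CBE sample lay below every PBS sample for Sox10, and CBE replicate 4 was the lowest. Its log2 fold change was -0.46 ± 0.18 for CBE over PBS (adjusted p = 0.13), 0.43 ± 0.18 for CBE+GZ-667161 over CBE (adjusted p = 0.26) and -0.03 ± 0.18 for CBE+GZ-667161 over PBS (adjusted p = 0.97).

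Counted together, 0 of the 8 genes passed for CBE against PBS, where 11.0% of all tested genes did. At an unadjusted p under 0.05 there were 4 (Gpr17, Bcas1, Olig1 and Sox10), but such p-values were common: Olig1 ranked only 2355 of 12623 genes by p. DESeq2 and limma-voom each called 2, Gpr17 and Bcas1, lower with CBE (adjusted p of 0.024 to 0.032). Of all tested genes, DESeq2 called 13% and limma-voom 11%. In 3 of the 8 (Gpr17, Bcas1 and Sox10) the CBE samples lay below the PBS samples without overlap, as did 7.00% of all tested genes. The median log2 fold change was -0.44 over the 8 genes and -0.015 over all genes tested, beside -0.6 over the 7 neuronal markers. For CBE+GZ-667161 against PBS, 0 of 8 passed, against 3.45% of all genes, with 1 at an unadjusted p under 0.05 (Cspg4) and 0 by DESeq2 or limma-voom. Cspg4 ranked 1406 of 12623 genes by p in that comparison, and DESeq2 called 4.52% and limma-voom 3.37% of all genes. The median there was 0.06 over the 8 genes and 0 over all. For CBE+GZ-667161 against CBE, 0 of 8 passed, against 1.28% of all genes. Here 6 had an unadjusted p under 0.05 (all but Cspg4 and Olig2), with Pdgfra lower and the rest higher with CBE+GZ-667161. Of the 6, Bcas1 came last and ranked 1870 of 12623 genes by p. DESeq2 called 1 (Olig1, adjusted p = 0.043) and limma-voom 0, beside 3.87% and 1.66% of all genes. The median was 0.51 over the 8 genes and 0.008 over all. It was 0.5 over 16 mature oligodendrocyte and myelin genes, 15 of them positive. Of the 8, Olig1 alone did not overlap, as was the case, with higher CBE+GZ-667161 samples, for 4.11% of all genes. These comparisons share samples, so their directions are not independent of each other. In bulk tissue, fewer cells of the lineage and less RNA per cell cannot be told apart.

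Gpr17 and Bcas1 were past the threshold in the authors' deposited table, whose log2 fold changes run PBS over CBE. The authors' deposited table gives 0.83 (adjusted p = 0.022) for Gpr17 and 0.88 (adjusted p = 0.017) for Bcas1, each higher in PBS, and it calls 9.74% of all genes in that comparison. For CBE over CBE+GZ-667161 the authors' deposited table gives Olig1 as -0.58 (adjusted p = 0.044), lower in CBE, and calls 2.28% of all genes. It calls none of the 8 between PBS and CBE+GZ-667161.

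Whether Gpr17, Bcas1 and Olig1 passed depended on which CBE samples entered the fit. With the CBE samples of day 40 alone, matched in age to the other groups (2 CBE against 4 PBS samples), 3 of the 8 genes fell: Bcas1 by a log2 fold change of -1.48 ± 0.30 (adjusted p = 0.0054), Gpr17 by -1.35 ± 0.29 (adjusted p = 0.0074) and Olig1 by -0.66 ± 0.20 (adjusted p = 0.045). In that fit 5.55% of all genes were called lower. Their levels in the day 40 CBE samples were 0.359, 0.392 and 0.635 of those in PBS samples. Enpp6 gave -1.59 ± 0.56 (adjusted p = 0.078), Olig2 -0.62 ± 0.21 (adjusted p = 0.071) and Sox10 -0.57 ± 0.24 (adjusted p = 0.13). The precursor genes gave 0.09 ± 0.22 for Pdgfra and 0.37 ± 0.31 for Cspg4, with adjusted p of 0.84 and 0.47. Precursor genes beyond the members did not share this pattern in the same fit. Of 15 tested, 12 had a negative log2 fold change (median -0.31), 1 was called lower and 1 higher. Of 10 further genes of newly formed oligodendrocytes, 8 were negative (median -0.18) and 0 were called. Of 16 mature oligodendrocyte and myelin genes, 15 were negative (median -0.76), 7 were called lower and 1 higher. The median over the 8 members was -0.64. A fall limited to the newly formed stage, or to the 8 members, is therefore not shown. Against the same day 40 CBE samples, Gpr17 (1.21 ± 0.29, adjusted p = 0.032), Bcas1 (1.22 ± 0.30, adjusted p = 0.034) and Olig1 (0.82 ± 0.20, adjusted p = 0.034) rose with CBE+GZ-667161. That call was made in the higher direction for 2.42% of all genes. Among the 16 mature genes, 6 were called higher and 1 lower, with a median of 0.7, beside 0.8 over the 8 members. Olig2 gave 0.78 ± 0.21 (adjusted p = 0.051) and Enpp6 1.73 ± 0.56 (adjusted p = 0.089) in this comparison. Sox10 gave 0.53 ± 0.23 (adjusted p = 0.21), Cspg4 0.18 ± 0.30 (adjusted p = 0.79) and Pdgfra, in the other direction, -0.42 ± 0.22 (adjusted p = 0.3). With the CBE samples of day 34 alone, 0 of 8 passed in edgeR. Of all genes, 5.51% were called against PBS, with 0.726% called lower, and 0.0147% were called between CBE+GZ-667161 and CBE. With so few genes called lower, 0 of 8 does not set the members apart from other genes. Of the 8, an unadjusted p under 0.05 was reached by 0 against PBS and 1 against CBE+GZ-667161. The latter was Pdgfra, lower with CBE+GZ-667161 (-0.59 ± 0.24, edgeR adjusted p = 0.38). The share of all genes under that unadjusted p is not given for these fits, so these counts do not set the 8 apart. Gpr17 and Bcas1 stood at -0.39 ± 0.23 and -0.43 ± 0.30 against PBS.

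**Figure D2:**
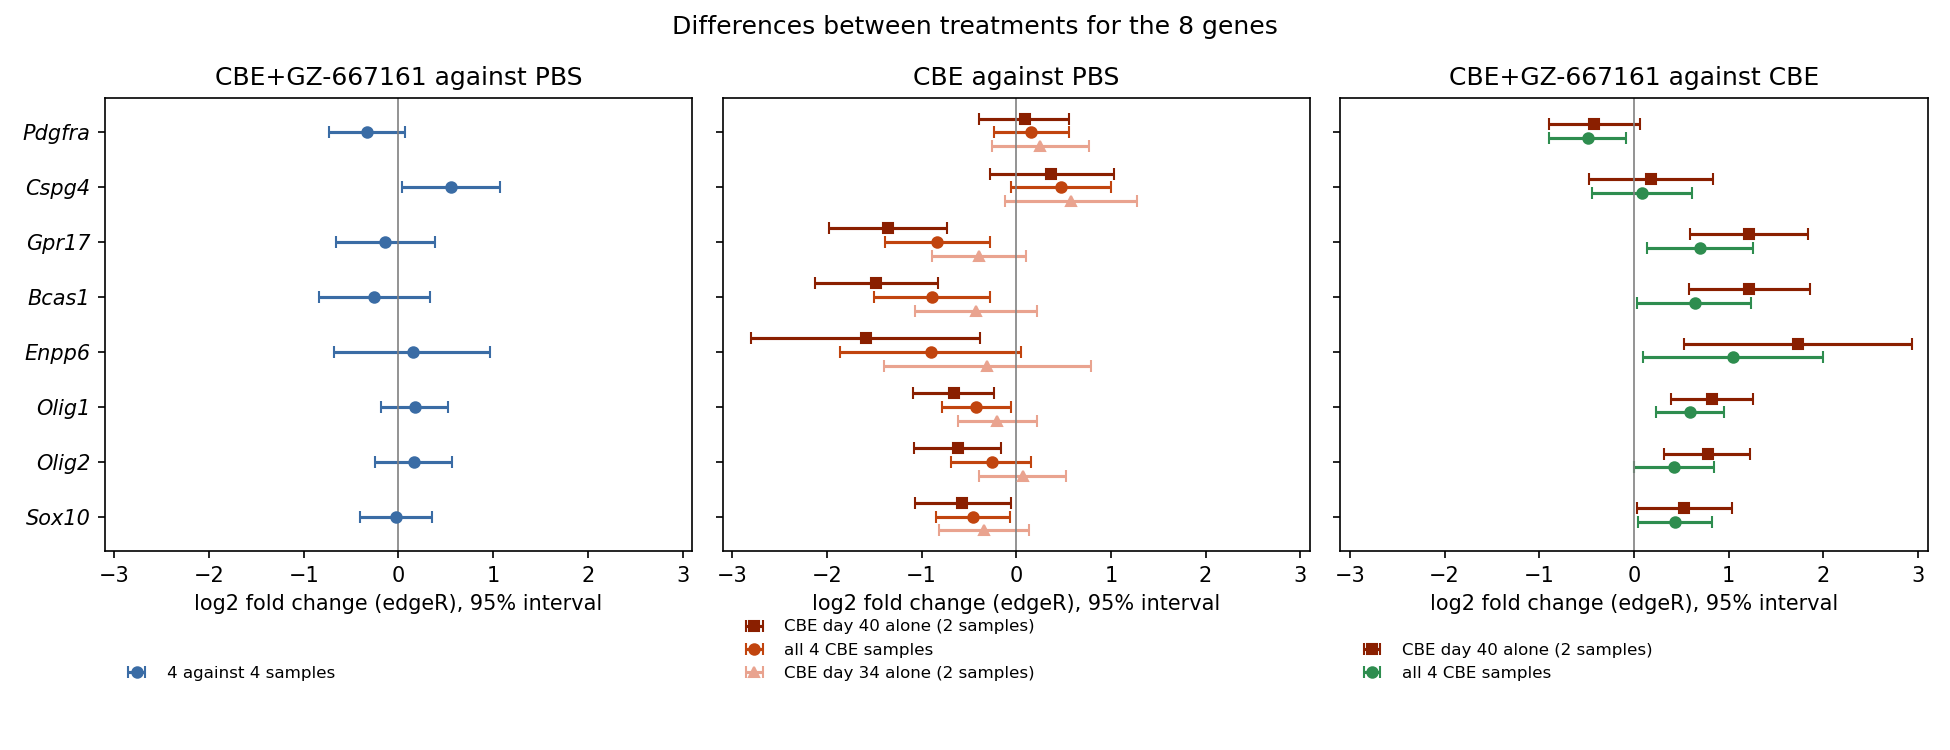
Log2 fold change of each gene with its 95% interval from edgeR, for CBE+GZ-667161 over PBS, CBE over PBS and CBE+GZ-667161 over CBE; squares use the 2 CBE samples of day 40 alone, circles all samples, and triangles the 2 of day 34 alone. Against PBS, Gpr17 stands at -1.35 with day 40 alone, -0.84 with all and -0.39 with day 34 alone, and the intervals of Pdgfra include 0 throughout that panel.

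The difference between the ages was itself tested in a fit with day 40 and day 34 as separate CBE groups, with 2 samples each. None of the 8 genes passed in edgeR, against 0.613% of 13372 genes tested there. DESeq2 and limma-voom called 0 of them, beside 1.79% and 0.142% of all genes. An unadjusted p under 0.05 was reached by 3 (Gpr17, Bcas1 and Olig2), of which Olig2 came last and ranked 947 by p. All 8 log2 fold changes were negative, with a median of -0.58, against -0.025 over all genes. Other genes of the lineage leaned the same way in part. Negative were 12 of 15 further precursor genes (median -0.44) and 11 of 16 mature oligodendrocyte and myelin genes (median -0.42). Further lineage transcription factors were negative in 6 of 11 (median -0.25), and further newly formed genes in 5 of 10 (median 0.01). Markers of some other cells lay on the same side. All 8 microglial markers were negative (median -0.69, 1 called lower), as were all 3 perivascular fibroblast markers tested (median -1.81, 0 called, 2 at an unadjusted p under 0.05). So were 3 of 5 pericyte markers (median -0.07, 1 called lower) and 4 of 7 neuronal markers (median -0.25). Markers of further cells lay mostly on the other side, with 0 called. Positive were 5 of 7 astrocyte markers (median 0.09), 3 of 4 choroid plexus markers (median 0.28) and 2 of 3 Schwann cell markers (median 0.33). The part of all these cells in the differences of the 8 genes was not tested. Enpp6 was at -1.29 ± 0.67 (adjusted p = 0.39), Bcas1 at -1.05 ± 0.35 (adjusted p = 0.17), Gpr17 at -0.96 ± 0.32 (adjusted p = 0.18) and Olig2 at -0.69 ± 0.25 (adjusted p = 0.21). Olig1 gave -0.46 ± 0.22 (adjusted p = 0.35), Sox10 -0.23 ± 0.27, Cspg4 -0.21 ± 0.37 and Pdgfra -0.17 ± 0.27. In 5 of the 8 (Gpr17, Bcas1, Enpp6, Olig1 and Olig2) both day 40 samples lay below both day 34 samples, as in 23.5% of all genes. A difference between the days is therefore not shown for any of the genes. The day 34 samples also had the lowest total counts, and age and depth cannot be told apart in these 4 samples.

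Within a sample, the balance of later to earlier genes can be read as a ratio of counts, which does not depend on library scaling. It is given as a description, since the pairs were chosen with results of these data known. The log2 ratio of Bcas1 to Pdgfra ran from 2.39 to 3.43 in CBE+GZ-667161 samples, from 1.07 to 2.05 in CBE samples and from 2.39 to 3.01 in PBS samples, so that no CBE sample reached either of the other groups. That of Gpr17 to Pdgfra was 1.45 to 2.49 with CBE+GZ-667161, -0.25 to 1.38 with CBE and 1.37 to 1.92 with PBS, where the highest CBE sample just passed the lowest PBS sample. For Enpp6 to Pdgfra the groups overlapped, at -2.01 to -0.40 with CBE+GZ-667161, -3.68 to -1.72 with CBE and -2.02 to -1.37 with PBS. Pdgfra itself had its lowest mean with CBE+GZ-667161 (15.4 CPM, against 21.8 CPM with CBE), which raises the ratios of that group. Set against Cspg4, the other precursor gene, Bcas1 did not separate CBE from CBE+GZ-667161. CBE replicate 2 had 208 counts of Bcas1 to 40 of Cspg4, a higher ratio than the 760 to 150 of CBE+GZ-667161 replicate 3. Between lineage factors the groups overlapped. Olig1 to Olig2 was 2.39 to 2.79 with CBE+GZ-667161, 2.20 to 2.87 with CBE and 2.53 to 2.85 with PBS.

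**Figure D3:**
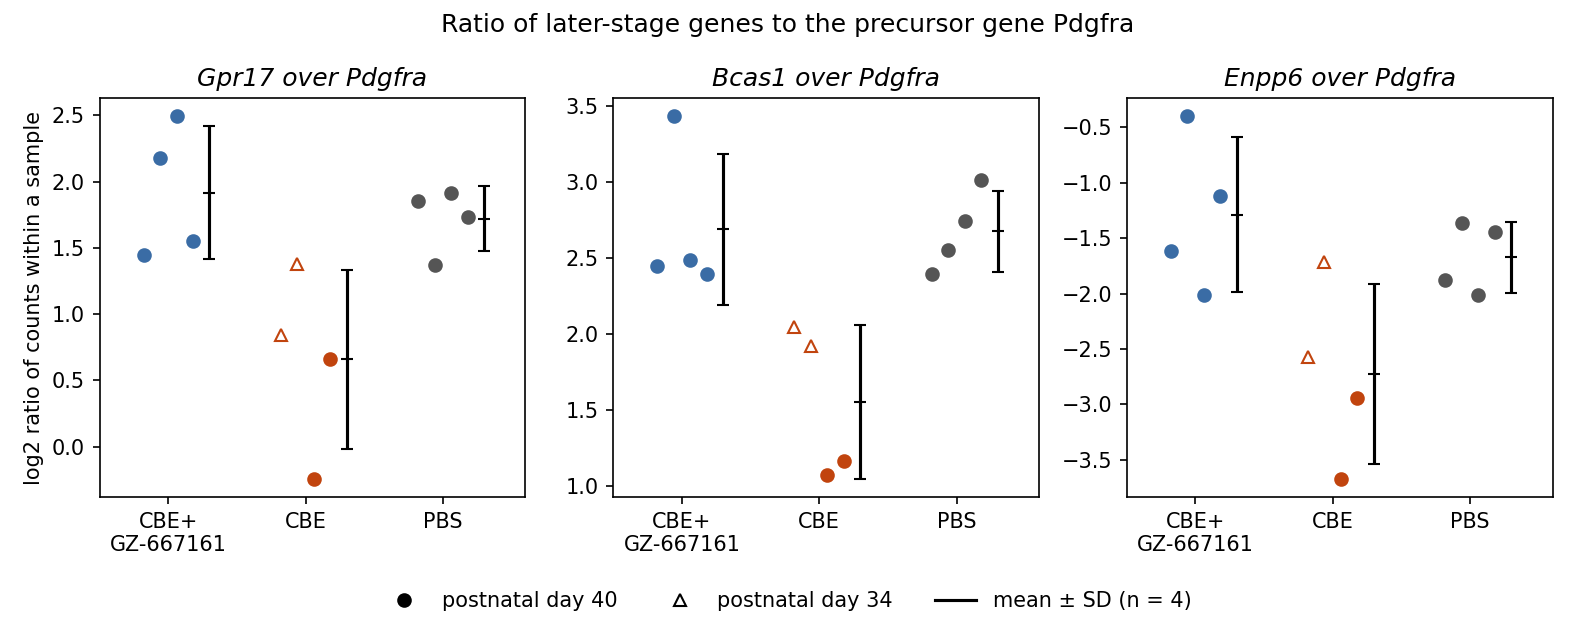
Log2 ratio of the counts of Gpr17, Bcas1 and Enpp6 to those of Pdgfra in each sample, with CBE+GZ-667161, CBE and PBS from left to right; filled circles are day 40, open triangles day 34, and bars the mean ± SD of 4 samples. The CBE samples of Bcas1 lie between 1.07 and 2.05, below all samples of the other groups, and the day 40 pair is the lowest in each panel.

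The 8 genes did not vary alike over the 12 samples. Measured as the root mean square difference in log2 CPM, each gene centred on its own mean, Olig1 and Olig2 were the closest pair at 0.197, followed by Olig1 and Sox10 at 0.260. Cspg4 and Bcas1 were the farthest apart at 0.768. Bcas1 was closer to Sox10 (0.359) and Enpp6 (0.370) than to Gpr17 (0.391). Among 9254 genes with a mean of at least 10 CPM, the nearest to Sox10 were Gjc3 (0.159), a connexin of myelinating cells, and Zdhhc9 (0.174), a palmitoyltransferase. S1pr5 (0.218), a sphingosine 1-phosphate receptor of oligodendrocytes, and Ppp1r14a (0.227) were nearest to Bcas1. Nearest to Gpr17 were AI464131 (0.201) and P4ha1 (0.202), a subunit of collagen prolyl hydroxylase. Olig1 was nearest to Tmeff1 (0.146) and Abhd3 (0.168), and Olig2 to Ulk2 (0.151) and Pced1a (0.167). Pdgfra was nearest to Prr14 (0.154) and Usp47 (0.156), and Cspg4 to Knop1 (0.226) and Rreb1 (0.245). Enpp6 was under the minimum level for this search.

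Mature oligodendrocyte and myelin genes were set beside the 8, since precursors supply the cells that express them. Of 16 tested, 5 fell and 1 rose in CBE against PBS samples, with a median log2 fold change of -0.54. Over all tested genes, 4.04% fell and 6.95% rose in this comparison, and the counts of the further lists below stand beside the same shares. Ugt8a, which makes the myelin lipid galactosylceramide, was at 12 ± 4.48 CPM with CBE+GZ-667161, 2.97 ± 2.27 CPM with CBE and 11.2 ± 2.47 CPM with PBS (SD, n = 4 each; CBE over PBS -2.07 ± 0.45, adjusted p = 0.0061). Gal3st1, which sulfates that lipid, was at 21.0 ± 4.99, 11.8 ± 3.23 and 22.4 ± 3.66 CPM in the same groups (-0.91 ± 0.23, adjusted p = 0.017). Apod, an apolipoprotein that other glia also express, rose instead, with 451 ± 43.4 CPM with CBE+GZ-667161, 807 ± 304 CPM with CBE and 370 ± 35.6 CPM with PBS (1.13 ± 0.19, adjusted p = 0.00081). CBE+GZ-667161 differed from PBS for 0 of 16, with 0 at an unadjusted p under 0.05 and 0 by DESeq2 and limma-voom. Against CBE, where 0.444% of all genes rose and 0.832% fell, 2 were higher with CBE+GZ-667161, Ugt8a (2.19 ± 0.45, adjusted p = 0.029) and Opalin, a marker of mature oligodendrocytes (1.47 ± 0.31, adjusted p = 0.032), and Apod was lower (-0.84 ± 0.19, adjusted p = 0.04). Opalin was named after its values were seen. Each of those 3 calls was lost when any 1 of CBE replicate 4, CBE replicate 6, CBE+GZ-667161 replicate 3 and CBE+GZ-667161 replicate 4 was left out (for Ugt8a, adjusted p of 0.086, 0.1, 0.09 and 0.087). Without PBS replicate 5 or CBE replicate 6 the fall of Gal3st1 with CBE was lost as well (adjusted p = 0.055 and 0.062).

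The summed level of 6 mature markers (Mbp, Mog, Mag, Mobp, Cnp and Cldn11) was 3000 to 6890 CPM with CBE+GZ-667161, 2450 to 5160 CPM with CBE and 4760 to 5740 CPM with PBS. That of the 8 precursor and lineage genes was 508 to 853 CPM with CBE+GZ-667161, 348 to 548 CPM with CBE and 566 to 678 CPM with PBS. CBE+GZ-667161 replicate 3 was the highest in both. Within the CBE group the order of the samples differed: the day 40 pair was lowest in the precursor and lineage sum, at 348 and 380 CPM, whereas replicate 3, of day 34, was lowest in the mature sum.

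**Figure D4:**
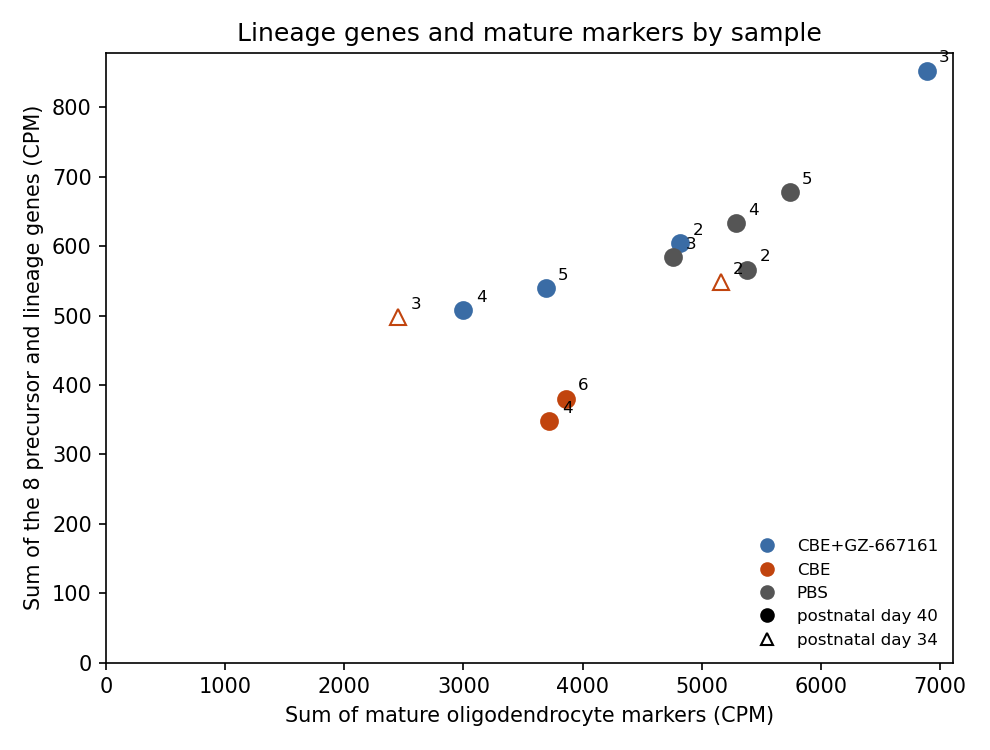
Summed level (CPM) of the 8 precursor and lineage genes against that of 6 mature oligodendrocyte markers in each sample, labelled by replicate number; colours are the groups, filled circles day 40 and open triangles day 34. CBE+GZ-667161 replicate 3 stands highest on both axes, at 6890 CPM on the horizontal and 853 CPM on the vertical, and the day 40 CBE samples are lowest on the vertical axis.

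Of 15 further precursor genes tested, 1 rose in CBE against PBS samples and none fell, with a median of -0.10. It was Vcan, a proteoglycan of the extracellular matrix, at 4.33 ± 0.948 CPM with CBE+GZ-667161, 5.19 ± 2.19 CPM with CBE and 1.67 ± 0.767 CPM with PBS (SD, n = 4 each; CBE over PBS 1.54 ± 0.41, adjusted p = 0.023). Vcan no longer passed without PBS replicate 2 (adjusted p = 0.064), PBS replicate 4 (0.061) or CBE replicate 6 (0.12). With at most 2.62 CPM in PBS samples, it passed the low-count filter only through treated samples, where it was high. The filter removed Vcan in a fit of only the CBE and PBS samples, so its call is weak support for a rise. Of 10 further genes of newly formed oligodendrocytes, 0 passed, with 0 at an unadjusted p under 0.05 and 0 by DESeq2 and limma-voom, and a median of -0.17. Fyn, a kinase that acts in the onset of myelination, gave -0.14 ± 0.15 (adjusted p = 0.63), and the zinc transporter Tmem163 gave -0.12 ± 0.23 (adjusted p = 0.79).

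Of 11 further lineage transcription factors, 1 fell with CBE, with a median of -0.18. Hes5, an effector of Notch signalling that holds back differentiation and is also expressed in astrocytes, was at 47.8 ± 12.9 CPM with CBE+GZ-667161, 29.5 ± 19.4 CPM with CBE and 70.3 ± 19.8 CPM with PBS (SD, n = 4 each; CBE over PBS -1.31 ± 0.36, adjusted p = 0.027). Hes5 did not pass in DESeq2 (adjusted p = 0.052), nor without PBS replicate 2 (0.071), PBS replicate 3 (0.084), CBE replicate 4 (0.089) or CBE replicate 6 (0.1). It was also lower in day 40 than in day 34 CBE samples (-1.76 ± 0.38, adjusted p = 0.046), a call lost in 11 of 20 alternatives, among them those that left out 1 of the 4 CBE samples (adjusted p of 0.079 to 0.33). Summed astrocyte markers were 3630 to 3850 CPM with CBE+GZ-667161, 3860 to 4290 CPM with CBE and 3550 to 4210 CPM with PBS, and 4 of 7 rose in CBE samples.

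Of 13 growth factors and receptors that act on precursors, 1 rose and 1 fell in CBE samples, with a median of -0.13. Igf1, a growth factor that promotes survival and maturation of the lineage, was at 18.1 ± 7.63 CPM with CBE+GZ-667161, 35.2 ± 4.33 CPM with CBE and 5.32 ± 1.40 CPM with PBS (SD, n = 4 each). It rose with CBE (2.66 ± 0.28, adjusted p = 6.7e-06) and with CBE+GZ-667161 (1.67 ± 0.28, adjusted p = 0.0015), each relative to PBS, and both calls were kept in all 22 alternatives. Activated microglia also make Igf1, and their markers, given above, were higher in the same samples. Gpr37, a receptor that delays oligodendrocyte maturation in mouse, was at 2.43 ± 1.14 CPM with CBE+GZ-667161, 1.01 ± 1.17 CPM with CBE and 4.21 ± 0.320 CPM with PBS (CBE over PBS -2.08 ± 0.57, adjusted p = 0.025). With 9 counts over the CBE samples, its call was lost when any 1 of PBS replicates 2, 4 and 5 and CBE replicates 3, 4 and 6 was left out (adjusted p of 0.05 to 0.098). Gpr37 passed the low-count filter through the PBS samples, where it was high, at 3.83 CPM or more. The CBE samples reached at most 2.69 CPM. Its call is therefore weak support for a fall.

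Of 8 cell cycle genes tested, 2 rose with CBE, with a median of 0.29. The mitotic kinase Cdk1 was at 5.26 ± 2.07 CPM with CBE+GZ-667161, 5.39 ± 2.31 CPM with CBE and 1.02 ± 0.796 CPM with PBS (SD, n = 4 each). It was called higher with CBE (2.32 ± 0.53, adjusted p = 0.0086) and with CBE+GZ-667161 (2.30 ± 0.51, adjusted p = 0.014), but the second call was lost without PBS replicate 4 (adjusted p = 0.052), PBS replicate 5 (0.066) or CBE+GZ-667161 replicate 3 (0.062) or 4 (0.055). With at most 2.13 CPM in PBS samples, Cdk1 passed the low-count filter only through treated samples, where it was high. In a fit of only the CBE and PBS samples the filter removed it. Its calls are therefore weak support for a rise. Mcm6, a replication helicase subunit, gave 0.70 ± 0.22 for CBE over PBS (adjusted p = 0.049), a call lost in 17 of 22 alternatives. Which cells express them was not tested, and the microglial markers were higher in the same groups than in PBS.

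Among these further lists, CBE+GZ-667161 against PBS gave calls for Igf1 and Cdk1 alone in edgeR, both higher, as were 3.11% of all genes. Counts of 0 stood beside 1 gene at an unadjusted p under 0.05 for the further precursor genes and none for the newly formed genes, the transcription factors and the mature genes, with 0 by DESeq2 and limma-voom in those 4 lists. For CBE+GZ-667161 against CBE, no gene of the precursor, newly formed, transcription factor, growth factor or cell cycle lists was called. At an unadjusted p under 0.05 there were 1 newly formed and 2 growth factor genes, and DESeq2 and limma-voom each called 1 growth factor gene. Between CBE day 40 and day 34, where 0.389% of all genes were called lower, the calls were Hes5 and, in the mature list, Car2 (-1.09 ± 0.17, adjusted p = 0.015), a carbonic anhydrase of oligodendrocytes that was named after its values were seen and whose call was lost when any 1 CBE sample was left out (adjusted p of 0.072 to 0.22). The other lists had 0 calls there in edgeR, beside 3 precursor, 1 newly formed, 1 growth factor and 3 cell cycle genes at an unadjusted p under 0.05, and DESeq2 called 1 cell cycle gene. Ccnb1, Cntf, Lif and 9630013A20Rik were not analysed here.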

How the data were processed

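Libraries of 12 whole-brain samples were made by bulk MARS-seq, per the labels' protocols. The authors deposited raw counts per gene symbol, whole numbers that had not been normalized, and these counts were used for every test. The submitters' processing notes list mm10 and the tools DESeq2, HTSeq, cutadapt and HISAT 0.1.6. Their roles, the annotation, strand use and molecular identifier handling were not found in these sources. The deposited normalized signal equalled the count times 1 constant per library (largest relative departure 6.58e-10). The authors' deposited table of comparisons holds log2 fold changes with a p-value and its adjusted form, and 16482 genes of it were read.

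Of 16505 entries, 23 carried a date as symbol and were dropped before scaling, a loss of 0.266% to 0.347% of a library's counts. Pairs of replicates all differed beyond sampling error (chi-square over its degrees of freedom, 3.29 to 12.2). Low genes were removed by filterByExpr (minimum count 10, minimum total 15), normalized by TMM, and the quasi-likelihood test of edgeR 4.0.16 was run in 1 fit of 3 groups of 4 samples, or of 4 groups for the ages. P-values were adjusted by Benjamini and Hochberg over all genes tested, with a threshold of 0.05. DESeq2 1.42.0 and limma-voom (limma 3.58.1), other scalings, no filter, fewer samples, an Xist covariate, a replicate block and leaving out samples were alternatives. SE is from the F statistic. Ratios of counts used a pseudocount of 0.5, and similarity a prior count of 2. The procedure was tested on simulated counts.

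The members, the gene lists and the tests were chosen with earlier results of these data known. All 8 members were named in every comparison of the main fits. From each of 6 further lists the rule took up to 3 passing genes of smallest p in CBE against PBS, or the 2 of highest mean count where none passed, and for each member with a mean of at least 10 CPM the 2 genes of most similar pattern. Software also included R 4.3.3, matplotlib 3.10.9, pandas 2.3.3 and Python 3.11.15. Some genes of these lists are not reported here and were left out of their counts, medians and sums.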

Additional observations from a re-analysis of the deposited data

Results flagged for a closer look

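In the CBE+GZ-667161 group, replicate 3 stood apart for Olig1, at 379 CPM against 235 to 253 CPM in the other 3 samples of that group. Its gap to the nearest of them was 0.875 of the group's range, above Dixon's 95% critical value for 4 samples. This was the only such case in 30 sets of 4 samples (8 genes and 2 summed levels in 3 groups), and chance flags about 1 in 20. Without this sample the log2 fold change of Olig1 was 0.40 for CBE+GZ-667161 over CBE and -0.01 for CBE+GZ-667161 over PBS.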

How the results depend on the processing

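Of 688 values of single members under alternatives, 653 kept their direction and their side of the threshold, 19 gained a call and 16 changed sign. As no member passed in the main fits, none could lose a call. For CBE against PBS, the count of members called, 0, became 1 with no filter and in a fit of only the groups compared, 2 with DESeq2 and with limma-voom, and 3 without the day 34 CBE samples; leaving out 1 sample gave 0 to 2. For CBE+GZ-667161 against CBE it became 1 with DESeq2 and 3 without the day 34 CBE samples. No other setting moved a count of members.

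Sign changes were all in values that did not pass; ranges are over leaving out each of the samples in turn. Olig2 turned to 0.07 for CBE over PBS without the day 40 CBE samples. For CBE+GZ-667161 over PBS, Enpp6 turned to -0.04 with limma-voom and with the Xist covariate and to -0.25 without CBE+GZ-667161 replicate 3 (range -0.25 to 0.43), Olig1 to -0.01 without the same sample (-0.01 to 0.27), and Sox10 to 0.03 without PBS replicate 4 and 0.12 without CBE+GZ-667161 replicate 4 (-0.24 to 0.12). For CBE+GZ-667161 over CBE, Cspg4 turned to -0.25 with the Xist covariate, -0.03 without the day 40 CBE samples and -0.05 without CBE+GZ-667161 replicate 3 (-0.05 to 0.2). Between the CBE ages, where leaving out 1 CBE sample sets 1 against 2 and assumes it varies like the rest, Pdgfra turned to 0.14 without CBE replicate 2 (-0.38 to 0.14), Cspg4 to 0.10 without CBE replicate 3 (-0.42 to 0.10) and Sox10 to 0.05 without CBE replicate 4 (-0.51 to 0.05). The causes were not tested.

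Counts over all genes moved more. For CBE over PBS, 1387 calls became 751 without the day 40 CBE samples. For CBE+GZ-667161 over CBE, the calls, 1.28% of tested genes, became 489 genes with DESeq2, 31 in a fit of only these groups, 69 with the Xist covariate, 692 without the day 34 and 2 without the day 40 CBE samples, and 5 to 269 without 1 sample. Between the ages 82 became 240 with DESeq2, 19 with limma-voom and 0 to 104 without 1 sample.

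Replicate numbers did not pair samples: deviations of same-numbered samples correlated at 0 to 0.063 between CBE and PBS, -0.078 to 0.24 between CBE+GZ-667161 and PBS and -0.047 to 0.042 between CBE+GZ-667161 and CBE, and 4 of 20 best matches had the same number. With the number as a replicate block, 0 members were called in any comparison, 947 genes for CBE over PBS, 404 for CBE+GZ-667161 over PBS, 82 for CBE+GZ-667161 over CBE and 9 between the ages. Under the block Cspg4 turned to -0.01 for CBE+GZ-667161 over CBE, and between the ages Pdgfra to 0.10 and Cspg4 to 0.32. Depth limits Enpp6 most, with 12 counts over the day 40 CBE samples.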
